A study of Danio rerio with 3 samples.

Results

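The comparison described here sets zebrafish (Danio rerio) embryos injected with wheat germ agglutinin (WGA) against control embryos of the same age, 4.3 hours post fertilisation (hpf). The control library came from wild-type embryos at dome stage with no treatment given in the labels. The WGA library came from wild-type embryos that had received 1 nl of a 0.65 ng/nl WGA solution in nuclease-free water, placed in the yolk of the 1-cell embryo. A further WGA library, from embryos of dome-like shape, was collected at 5 hpf and is given beside the matched pair as another value. All libraries were poly(A) RNA from whole embryos without their chorions, and the number of embryos per library is not given in the labels. The control carried no mock injection in the labels, so the effects of WGA and of injection cannot be told apart. Per the labels the WGA embryos looked like dome stage at 5 hpf, so at 4.3 hpf a delay in development and the treatment cannot be told apart. Genes entered the comparison when their deposited FPKM (a fragment count scaled by transcript length and by all mapped fragments of the library) was 1 or more in either library of the pair, which held for 14263 of 25386 genes. With 1 library in each group, none of the differences has a replicate check, and p-values are not given.

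Nuclear pore complexes are the channels through which proteins enter and RNAs leave the nucleus, and several of the proteins that line the channel carry O-linked N-acetylglucosamine. WGA is a plant lectin that binds this sugar and hinders signal-dependent traffic through the pore. The early zebrafish embryo lives on RNAs laid down in the egg. Its own genome becomes broadly active during blastula stages, while many of the egg's RNAs are cleared. Activation of the genome depends on proteins that act in the nucleus. Poly(A) RNA from a whole embryo at dome stage is therefore a mixture of stored and newly made transcripts from the deep cells, the enveloping layer and the yolk syncytial layer. In such bulk samples, fewer cells of a type and less RNA per cell cannot be told apart.

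Each gene was described by its log2 ratio of (FPKM + 1), WGA over control at 4.3 hpf, and all folds are on this scale, which understates differences of low genes. A gene was counted as lower or higher at 2-fold or more. Over all measured genes 1280 were lower (8.97%) and 1028 were higher (7.21%), and the other 11955 lay within 2-fold. Lower genes made up 55.5% of those counted, and the share was 16.2% (814 lower and 4209 higher) when WGA values were rescaled to the cytosolic ribosomal protein genes. With only genes at FPKM of 5 or more in either library it was 45.5% (783 lower and 937 higher). The other scalings tried were TPM (each library rescaled to the same sum), which gave 1544 lower and 1589 higher (49.3% lower), and a median ratio of 1, which gave 1335 and 874 (60.4%). Which side held more genes thus depended on the scaling and on the filter. The TPM step also raised all values, since the FPKM sums were 430459 in control and 401114 in WGA embryos at 4.3 hpf. The added 1 weighs less on larger values, so TPM counts here and below mix a change of scale with a smaller weight of the added 1. The ribosomal protein scaling moved the median of all genes by 0.66 on the log2 scale, from 0.03. It moves the ratios below upwards, by less in genes of low FPKM. Where it or another scaling changed which side of a family held more genes, or made the sides equal, the counts it gave follow in the same sentence. Medians within 0.1 of 0 are read as level.

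The 2 sides differed in level and in annotation. Lower genes held 10.4% of all FPKM in control and 3.18% in WGA embryos at 4.3 hpf. Higher genes held 2.51% and 7.59%, in the same order. At 5 hpf under WGA the shares were 3.94% and 6.77%. Among genes at a mean FPKM under 2 in the pair, 14.3% were lower and 1.28% were higher. Between FPKM 5 and 20 the order was the opposite, with 8.83% lower and 11.2% higher. Of the lower genes, 658 (51.4%) carried only a clone name or a locus number, against 158 (15.4%) of the higher genes and 22.5% of all measured genes. Genes that were present in one library and nearly missing from the other were mostly control genes. At FPKM of 5 or more in control and under 1 in WGA embryos stood 57 genes, and 13 genes met the reverse condition.

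The most abundant transcript in control, the translation elongation factor gene eef1a1l1, stood at 2920.3, 1443 and 1855 FPKM in control, WGA at 4.3 hpf and WGA at 5 hpf. Values below are given in this order unless stated otherwise. The cytoskeletal reference genes were actb2 at 1561, 1203 and 1369.7 FPKM, actb1 at 265, 181 and 231 FPKM and the alpha-tubulin gene tuba8l4 at 207, 100.04 and 118 FPKM, and each of the 3 was highest in control. Only tuba8l4 among them reached 2-fold (2.06-fold lower), and gapdhs, a low-abundance gene here, was at 3.15, 2.05 and 2.41 FPKM. The 9 genes fixed as marks of a blastula were all present in control, among them the mesoderm gene tbxta, listed as ta, at 18.7, 2.75 and 8.95 FPKM and the pluripotency gene nanog at 1094, 935 and 968 FPKM. Of the others, the stem cell factor gene pou5f3 was at 717, 424 and 419 FPKM and the ventral gene vox at 84.7, 17.9 and 23.7 FPKM. The dorsal gene gsc was at 19.6, 3.87 and 5.28 FPKM and the enveloping layer genes klf17 and krt4 at 109, 32.8 and 23.6 FPKM and at 113, 13.1 and 43.6 FPKM. Except for sox19b, each of the 9 was highest in control. Of 10 genes fixed as marks of later cell types, 7 were in the table and their summed level was 2.77, 0.89 and 0.82 FPKM, with only the neuronal gene elavl3 at FPKM of 1 or more in either library of the pair.

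**Figure D1:**
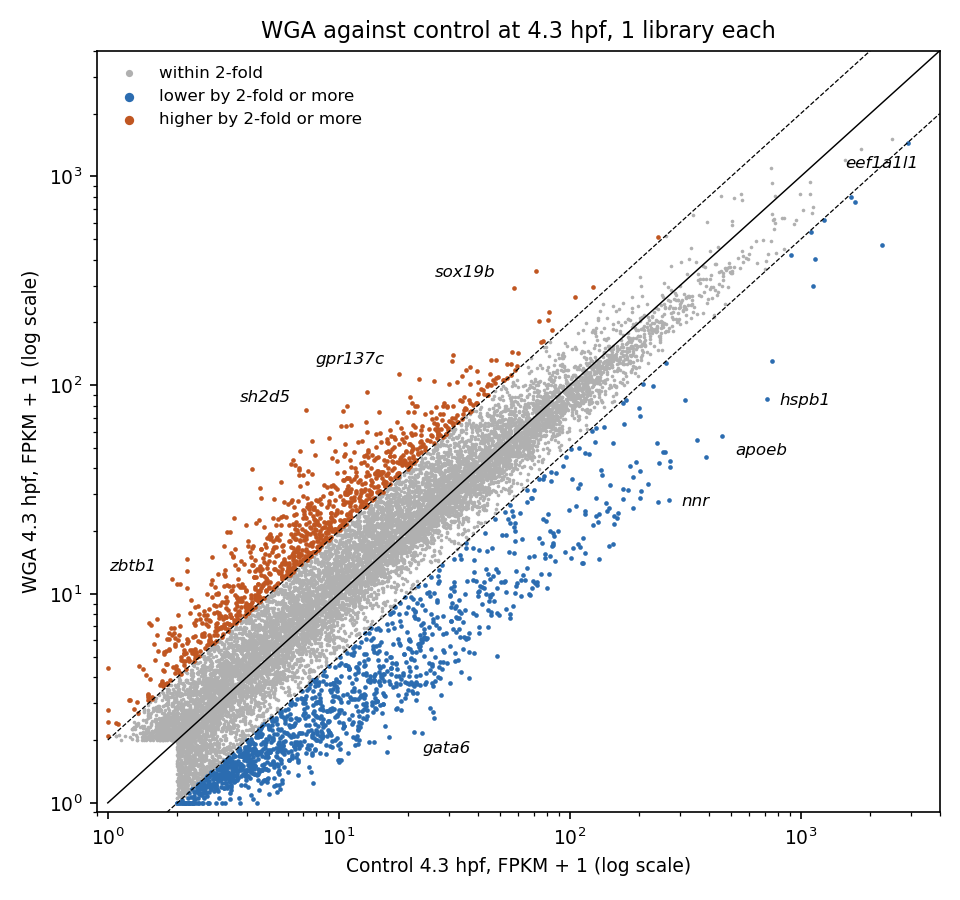
Each point is 1 of 14263 genes, with FPKM + 1 in control at 4.3 hpf on the horizontal axis and in WGA embryos at 4.3 hpf on the vertical axis, both on log scales. The solid line marks equal values and the dashed lines 2-fold. Most of the 1280 lower genes and of the 1028 higher genes lie under 100 FPKM in both libraries. At a mean FPKM of 100 or more in the pair stood 42 lower and 12 higher genes.

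By the naming rule, which took named genes at FPKM of 10 or more in either library of the pair, the 20 lowest genes were 7.07-fold to 10.6-fold lower. Besides keratins and endoderm regulators of the outer and yolk layers they included genes of amino acid transport, of molecular motors and of cell shape. The dynein light chain gene dynll1 (NCBI Gene 406297) was at 389, 44.5 and 90.2 FPKM (8.58-fold lower) and the RhoA GTPase gene rhoab (NCBI Gene 100006041) at 32.9, 3.22 and 8.85 FPKM. Both were most abundant in control, lowest in WGA embryos at 4.3 hpf and between these values at 5 hpf. The amino acid transporter gene slc7a8a was at 26.9, 2.27 and 8.87 FPKM, and the sulfotransferase gene sult6b1 at 78.7, 9.69 and 20.3 FPKM. The gene lye, which encodes a small Ly6-domain surface protein of the epidermis, was at 112, 13.1 and 33.5 FPKM. The retinoic acid-binding protein gene crabp2b was at 24.7, 2.63 and 7.29 FPKM. All 20 of the 20 lowest genes lay between the matched pair's values at 5 hpf, and 19 were still below control by 2-fold or more. The exception was the keratin gene krt5, at 24.9, 1.54 and 14.1 FPKM. These genes were picked as extremes of the pair and the 5 hpf ratio uses the same control library, so their 5 hpf values are no independent check.

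The 20 highest genes were 5.69-fold to 10.5-fold higher and began from lower levels. In control they ranged from 0.89 to 17.2 FPKM, against 15.2 to 714 FPKM for the 20 lowest genes. The most different was sh2d5 (NCBI Gene 541529), which encodes an SH2-domain protein, at 6.23, 74.7 and 64.2 FPKM (10.5-fold higher). The slingshot phosphatase gene ssh2a, whose product activates the actin-severing protein cofilin, was at 9.48, 74.6 and 67.9 FPKM. The lipid transfer gene stard7 was at 5.47, 40.5 and 40.8 FPKM. In these 3 genes both WGA libraries were high and close to each other, and control was low. The glucocorticoid receptor gene nr3c1 was at 2.38, 18.9 and 18.1 FPKM, the histone H3 lysine demethylase gene kdm4ab at 9.71, 63.1 and 59.2 FPKM and the elongation complex gene mllt1a at 5.74, 38.4 and 39.4 FPKM. A pair of Niban genes, niban2b and niban2a, listed as fam129bb and fam129ba, belonged to the group, at 5.81, 47.6 and 44.2 FPKM and at 3.59, 28 and 22.4 FPKM. The RNA-binding protein gene bicc1a was at 2.27, 18.9 and 18.4 FPKM, the spindle midzone gene ccdc69 at 9.22, 62.9 and 67.8 FPKM and the membrane protein gene gpr137c at 17.2, 112 and 124 FPKM. At 5 hpf all 20 of the highest genes remained above control by 4-fold or more, where the ratio uses the same control library. They too were picked as extremes of the pair.

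**Figure D2:**
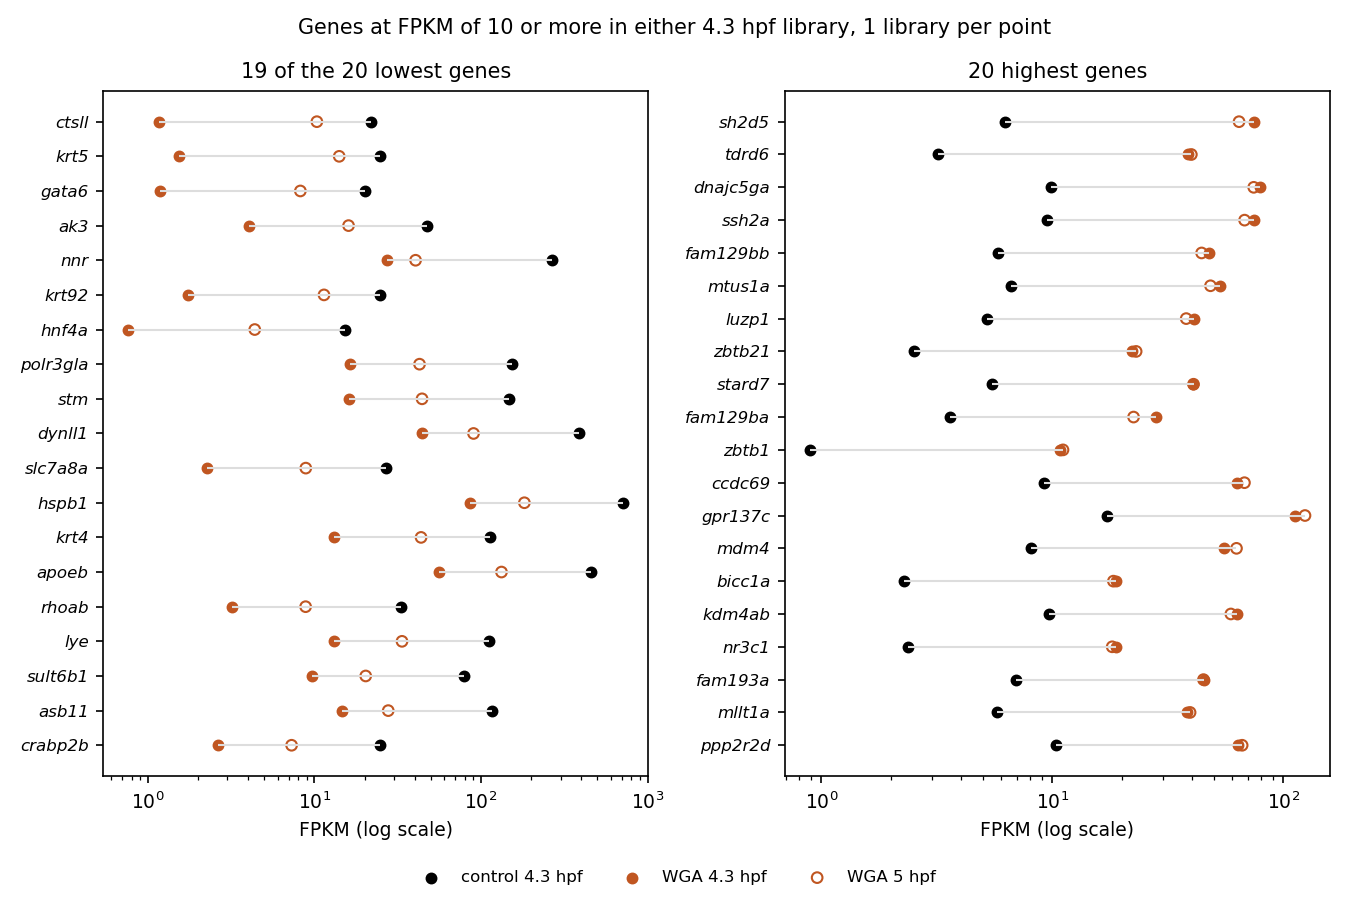
Each row is 1 gene, with its FPKM on a log axis in control at 4.3 hpf (black), WGA at 4.3 hpf (filled orange) and WGA at 5 hpf (open orange), 1 library per point. Of the 20 lowest genes 19 are drawn (left), where the open points lie between the others, and in the 20 highest genes (right) the open points lie near the filled ones.

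Gene families and functions were described with 99 lists built from gene symbols, which together hold 6274 of the measured genes (44%), 407 of the lower genes and 497 of the higher genes. The share of lower members passed that of all genes in 27 lists, and the share of higher members in 52. In 14 lists both shares were above those of all genes, and in 34 neither was. The shares of all genes include clone-named genes, which the lists hold only through a current symbol. Such names were carried by 51.4% of lower genes, 15.4% of higher genes and 22.5% of all. A list below 8.97% lower, or above 7.21% higher, may thus not differ from named genes alone, whose shares were not computed. Grouped into 10 functions, the lists of transcription factors held the largest share of lower genes, 100 of 585 (17.1%), and 64 higher (10.9%), whereas ribosomal protein scaling gave 75 lower and 202 higher. Protein turnover and membrane traffic held the smallest share of lower genes, 34 of 1270 (2.68%), and 105 higher (8.27%). Chromatin genes and cytoskeletal genes also had more higher than lower, 27 against 12 of 284 and 56 against 29 of 594. Genes of RNA synthesis, RNA processing and translation had few on either side, 41 lower and 29 higher of 771, or 12 and 148 with ribosomal protein scaling. Members of signalling lists were found on both sides, 61 lower and 71 higher of 648. Genes can belong to more than 1 list, as 195 did. Many genes named below were picked as the lowest or highest of a list, or as opposite pairs, by their matched-pair ratios. The later WGA library is set against the same control library. Where both WGA libraries are said to lie on the same side of control, this describes the values and is no independent check.

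**Figure D3:**
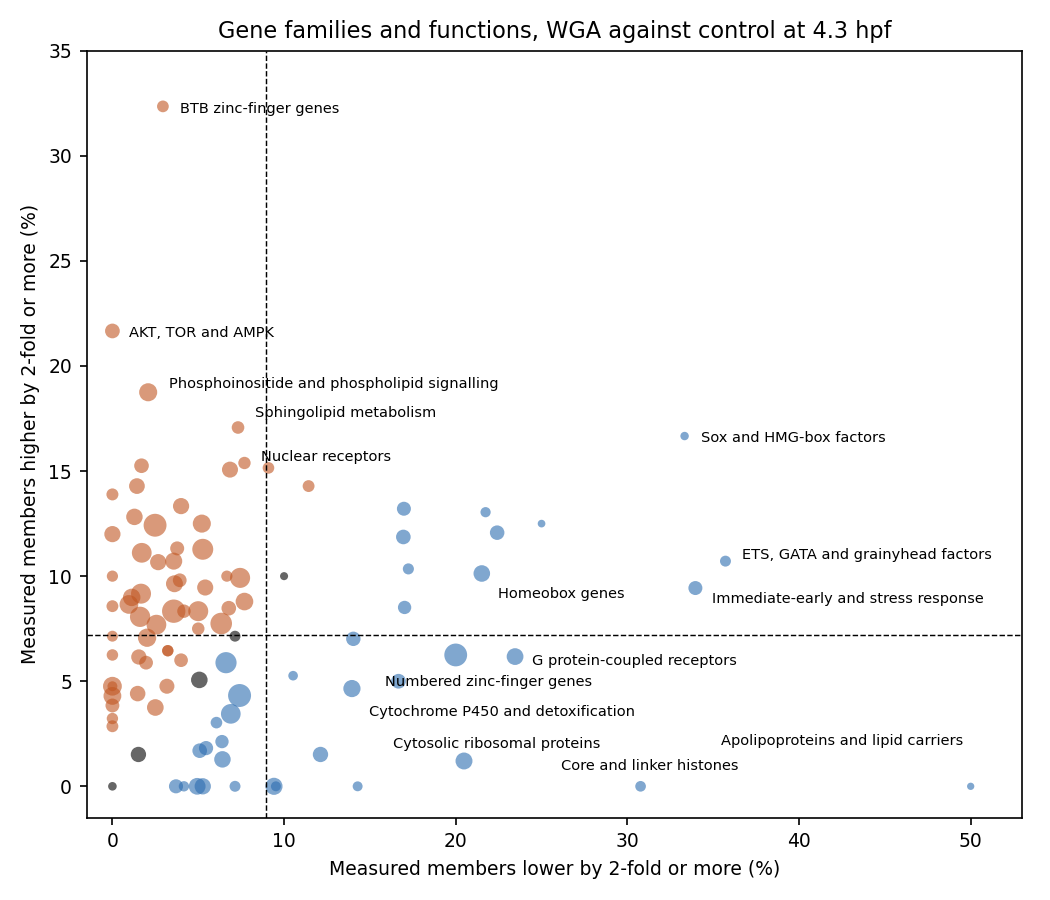
Each point is 1 of 99 lists, placed by the percent of its measured members lower by 2-fold or more (horizontal) and higher by 2-fold or more (vertical), with point area set by list size. Dashed lines mark the shares of all measured genes, 8.97% and 7.21%. Blue lists had more members lower, orange lists more higher and black lists as many of each, and with ribosomal protein scaling 29 of them lay on the opposite side.

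Developmental regulators of germ layers, axis and outer layer were among the lower members of the transcription factor families. The same families also had higher members. The 28 measured ETS, GATA, grainyhead and AP-2 factors had 10 lower (35.7%) and 3 higher (10.7%), the median log2 ratio being -0.36, whereas ribosomal protein scaling gave 8 lower and 8 higher at a median of 0.35. The GATA factor genes gata5 and gata3, of endoderm and of ectoderm and blood, were at 9.03, 0.57 and 3.87 FPKM and at 60.2, 10.7 and 12.6 FPKM. The epithelial regulator gene grhl3 was at 129.6, 27.9 and 26.3 FPKM (4.52-fold lower). These 3 were low in both WGA libraries, with gata5 less so at 5 hpf. The ETS genes etv5a, elk4 and elf2a were the higher members, with etv5a at 30.1, 138 and 147 FPKM and elk4 at 0.81, 5.07 and 6.41 FPKM. Among 12 Sox factors there were 4 lower (33.3%) and 2 higher (16.7%), at a median log2 ratio of -0.04. Besides sox19a, the SoxB1 gene sox3 was at 57.3, 11.9 and 14.9 FPKM (4.51-fold lower) and the SoxC gene sox11a at 57.9, 10.3 and 9.38 FPKM, while sox5 was at 2.09, 5.98 and 3.75 FPKM. Of 79 homeobox genes, 17 were lower (21.5%) and 8 higher (10.1%), and the median log2 ratio was -0.19, whereas ribosomal protein scaling gave 14 lower and 20 higher at a median of 0.43. On the lower side these included the yolk syncytial gene mxtx1 at 25, 2.84 and 5.73 FPKM and the neural gene gbx1 at 7.82, 0.71 and 1.72 FPKM. On the higher side were zhx2a at 9.84, 35 and 38.9 FPKM and cux1a at 0.76, 4.27 and 3.59 FPKM, of the zinc-finger homeobox and CUT classes. The 29 measured forkhead genes had 5 lower (17.2%) and 3 higher (10.3%), the median log2 ratio being -0.08, whereas TPM scaling gave 7 lower and 8 higher and ribosomal protein scaling gave 3 lower and 12 higher. The neural plate gene foxd5 was at 35.5, 5.48 and 10.6 FPKM and the neural crest gene foxd3 at 21.4, 5.37 and 4.34 FPKM, whereas foxp1a was at 8.6, 47.2 and 44.9 FPKM.

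Factors of growth, stress and hormone response were found on both sides. Among 53 basic helix-loop-helix genes there were 9 lower (17%) and 7 higher (13.2%), at a median log2 ratio of -0.03, whereas ribosomal protein scaling gave 9 lower and 15 higher. The inhibitor gene id1, a target of BMP signals, was at 269.7, 42.6 and 40.5 FPKM (6.21-fold lower), and the MYC family genes mych and mycn were at 133, 23.2 and 27.4 FPKM and at 27.2, 4.42 and 4.06 FPKM. Members of the MYC family thus differed, since myclb was at 19.9, 63.2 and 53.7 FPKM and mycla, the most abundant member in control, at 512, 368 and 336 FPKM. The circadian factor gene bmal2, listed as arntl2, was at 18.1, 58.1 and 55.6 FPKM. Of 47 AP-1, ATF, CREB and C/EBP genes, 8 were lower (17%) and 4 higher (8.51%), and the median log2 ratio was 0.11, whereas ribosomal protein scaling gave 5 lower and 16 higher. The stress-linked factor genes cebpb, atf4b and atf4a were at 80.05, 11.4 and 16.2 FPKM (6.52-fold lower), at 21.4, 2.67 and 4.52 FPKM and at 39, 9.23 and 14.8 FPKM, while their relative atf5a was at 6.29, 27.7 and 29.6 FPKM. The first 3 were low in both WGA libraries and atf5a was high in both. The 23 measured Krüppel-like and Sp genes had 5 lower (21.7%) and 3 higher (13%), the median log2 ratio being -0.29, whereas ribosomal protein scaling gave 2 lower and 5 higher at a median of 0.29. The Wnt target gene sp5a was at 11.3, 1.3 and 2.22 FPKM, and klf9, which is glucocorticoid-responsive in vertebrates, at 2.43, 6.75 and 6.1 FPKM. Among 39 nuclear receptor genes there were 3 lower (7.69%) and 6 higher (15.4%), at a median log2 ratio of 0.37. Besides hnf4a the lower members were nr0b2a (4.44, 0.41 and 2.25 FPKM) and nr5a1a (3.47, 0.62 and 0.62 FPKM). The orphan receptor genes nr2c2 and rorca were at 1.29, 8.4 and 9.59 FPKM and at 0.63, 5.34 and 5.18 FPKM, high in both WGA libraries. Of 53 STAT, IRF, NF-kB and SMAD genes, 2 were lower (3.77%) and 6 higher (11.3%), and the median log2 ratio was 0.27. The inhibitory SMAD gene smad7 was at 9.25, 1.79 and 1.82 FPKM, against 1.79, 10.2 and 10.2 FPKM for the osmotic stress factor gene nfat5a.

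The zinc-finger genes held more lower members in 1 class (in the deposited values, but not with ribosomal protein scaling) and more higher members in another. The first class is named by number only, and many of its members arose by tandem duplication in fish. The second carries a BTB domain, which lets factors pair and recruit corepressors. The 160 measured numbered znf genes had 32 lower (20%) and 10 higher (6.25%), the median log2 ratio being 0.02, whereas ribosomal protein scaling gave 23 lower and 55 higher. The 3 lowest were znf1040, znf1043 and znf1137, at 25.8, 2.99 and 4.49 FPKM, at 218, 32.6 and 24.9 FPKM and at 94.1, 15 and 10.8 FPKM. The high-numbered members lie in arrays of near copies, among which RSEM shares reads by estimate, so single values are uncertain. The 3 highest were znf106b, znf652 and znf296, the second at 5.28, 27.2 and 23.9 FPKM. Among 34 BTB zinc-finger genes there was 1 lower (2.94%) and 11 higher (32.4%), at a median log2 ratio of 0.59. Here zbtb21 was at 2.51, 22.2 and 23 FPKM (6.6-fold higher), zbtb1 at 0.89, 10.8 and 11.1 FPKM and zbtb18, a neuronal repressor in mammals, at 2.47, 9.92 and 7.93 FPKM. The summed FPKM of the BTB class was 275 in control, 436 in WGA embryos at 4.3 hpf and 399 at 5 hpf, so both WGA libraries were above control. The most abundant member, zbtb14, was at 82.1, 104 and 108 FPKM.

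Receptors for secreted signals of gastrulation, a BMP ligand, some antagonists of BMP and brakes on G protein signalling were among the lower genes. Insulin receptors and ligases that remove receptors were among the higher ones. Of 81 G protein-coupled receptor genes, 19 were lower (23.5%) and 5 higher (6.17%), and the median log2 ratio was -0.04, whereas ribosomal protein scaling gave 15 lower and 20 higher. The apelin receptor gene aplnra, which guides mesendoderm movement, was at 43.4, 5.94 and 9.73 FPKM (6.39-fold lower). The chemokine receptor gene cxcr4a was at 73.8, 11.5 and 9.95 FPKM (5.97-fold lower) and the lysophosphatidic acid receptor gene lpar3 at 19.2, 3.29 and 1.92 FPKM. The Frizzled receptors were split, with fzd7a at 51.5, 10.6 and 9.38 FPKM, fzd5 at 5.46, 20.5 and 13.7 FPKM and the maternal, most abundant member fzd7b at 84.1, 73.1 and 69.3 FPKM. Of the regulators of G protein signalling, 4 of 11 rgs genes were lower and 0 higher, led by rgs3a at 14.5, 1.97 and 3.73 FPKM. The G protein alpha gene gna15.1 was at 14.6, 1.97 and 6.9 FPKM and the kinase anchor gene akap12b at 242, 41.2 and 52.8 FPKM. Apart from fzd5, each of these genes was highest in control, and fzd7b was nearly level. The 58 measured TGF-beta superfamily genes had 13 lower (22.4%) and 7 higher (12.1%), the median log2 ratio being -0.04, whereas ribosomal protein scaling gave 11 lower and 18 higher. Their lowest member encodes a BMP ligand, so the lower members were not only antagonists. The secreted BMP antagonist gene chrd, listed as chd, was at 26.4, 3.72 and 7.79 FPKM (5.79-fold lower) and the pseudoreceptor gene bambia at 49.5, 10.4 and 10.6 FPKM, while the ubiquitin ligase gene smurf1 and the receptor gene acvr2aa were at 10.3, 31 and 26.5 FPKM and at 6.51, 20.03 and 19.7 FPKM. Among 59 Wnt pathway genes there were 10 lower (16.9%) and 7 higher (11.9%), at a median log2 ratio of 0.09, whereas ribosomal protein scaling gave 6 lower and 25 higher. The ligand gene wnt11f2, listed as wnt11, was at 42.4, 9.06 and 16.7 FPKM and the gene of the receptor-degrading ligase znrf3 at 1, 10.2 and 7.16 FPKM. Of 35 receptor tyrosine kinase genes, 4 were lower (11.4%) and 5 higher (14.3%), and the median log2 ratio was 0.16. The FGF receptor gene fgfr4 was at 20.2, 3.82 and 4.9 FPKM (4.4-fold lower) and the ephrin receptor gene epha2a at 9.03, 1.78 and 1.94 FPKM, against 4.11, 17.9 and 15.6 FPKM and 6.97, 17.7 and 16.6 FPKM for the insulin receptor genes insra and insrb.

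Some feedback inhibitors and stimulus-induced genes were among the lower genes of the next lists, and some kinases, though not all, among the higher. The shares over all genes were 8.97% lower and 7.21% higher. Those of the MAP kinase list and of the Notch and Hedgehog list were near them. The 91 measured MAP kinase cascade genes had 7 lower (7.69%) and 8 higher (8.79%), the median log2 ratio being 0.13, whereas scaling to a median ratio of 1 gave 7 lower and 7 higher at a median of 0.06. The Sprouty genes spry2 and spry1, feedback inhibitors induced by FGF, were at 6.91, 1.38 and 2.48 FPKM and at 3.89, 0.57 and 1.62 FPKM, and the p38 kinase gene mapk12b at 25, 3.99 and 7.76 FPKM. The downstream kinase genes rps6ka1 and mknk1 and the upstream kinase gene map3k3 were at 2.49, 14.1 and 14.3 FPKM, at 20.1, 73.4 and 75.3 FPKM and at 1.39, 7.64 and 8.03 FPKM. Among 53 immediate-early and stress response genes there were 18 lower (34%) and 5 higher (9.43%), at a median log2 ratio of -0.42, whereas ribosomal protein scaling gave 11 lower and 15 higher at a median of 0.09. Immediate-early genes are those that cells switch on within minutes of a stimulus. The GTPase gene rnd1b was at 23.9, 3.31 and 2.41 FPKM (5.77-fold lower), the growth arrest gene gadd45ba at 23.5, 3.66 and 6.09 FPKM and the flow-responsive factor gene klf2a at 40.9, 7.99 and 6.29 FPKM, each low in both WGA libraries. The serum- and glucocorticoid-regulated kinase gene sgk1 was at 10.6, 46.9 and 48.1 FPKM (4.13-fold higher) and the arrestin-like gene arrdc1a at 44.8, 132 and 132 FPKM, high in both. The most abundant member, btg2, was at 437, 460.4 and 504 FPKM. Of 30 Notch and Hedgehog genes, 2 were lower (6.67%) and 3 higher (10%), and the median log2 ratio was 0.20. The glycosyltransferase gene lfng, a modifier of Notch, was at 47.1, 12.2 and 9.65 FPKM.

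Genes that make, remove or read membrane phosphoinositides, and genes of the AKT and TOR pathway downstream of them, had more higher than lower members. Phosphatase subunits were found on both sides. The 60 measured AKT, TOR and AMPK genes had 0 lower and 13 higher (21.7%), the median log2 ratio being 0.17. The arginine sensor gene castor1, listed as gatsl3, was at 4.18, 22.1 and 25 FPKM, and the kinase genes sgk1 and sgk3 were both higher, the second at 6.06, 23.2 and 25.8 FPKM. The most abundant member, the translation repressor gene eif4ebp3l, was at 221, 141 and 189 FPKM, highest in control. Among 96 phosphoinositide and phospholipid signalling genes there were 2 lower (2.08%) and 18 higher (18.8%), at a median log2 ratio of 0.35. The phosphatidylinositol 4-phosphate phosphatase gene sacm1la was at 2.01, 9.16 and 10.1 FPKM (3.38-fold higher), the PI3-kinase regulatory subunit gene pik3r3b at 15.4, 52.1 and 49.6 FPKM and the myotubularin gene mtmr7a at 2.28, 8.26 and 6.13 FPKM. Both WGA libraries were above control in each. The lower members encode inositol phosphate kinases, with ip6k2b at 13.3, 2.85 and 2.07 FPKM and itpk1a at 2.77, 0.34 and 0.65 FPKM. Of 41 sphingolipid genes, 3 were lower (7.32%) and 7 higher (17.1%), and the median log2 ratio was 0.26. The sphingomyelinase gene smpd4 was at 19.7, 81.2 and 75 FPKM, against 3.53, 0.15 and 1.52 FPKM for the desaturase gene degs1 and 19.7, 4.3 and 8.64 FPKM for the ceramide synthase gene cers2b. The 96 measured protein phosphatase genes had 5 lower (5.21%) and 12 higher (12.5%), the median log2 ratio being 0.07. The regulatory subunit genes ppp2r2d and ppp2r5eb of phosphatase 2A were at 10.3, 63.5 and 66.2 FPKM (5.69-fold higher) and at 8.35, 43.9 and 41.2 FPKM. The glycogen-targeting subunit gene ppp1r3ca of phosphatase 1 was at 43.3, 11.5 and 13 FPKM. Among 120 protein kinase A, protein kinase C and calcium genes there were 6 lower (5%) and 10 higher (8.33%), at a median log2 ratio of 0.19. The calcineurin gene ppp3cca was at 3.98, 17.9 and 16.9 FPKM. Of 35 protein tyrosine phosphatase genes, 0 were lower and 3 higher (8.57%), and the median log2 ratio was 0.12. The highest ratio was that of ptpn23b, at 4.35, 20.4 and 22.1 FPKM.

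Ubiquitin ligase adaptors and deubiquitinases had more higher than lower members, while the proteasome itself, which degrades the tagged proteins, did not in the deposited values. The 161 measured cullin, F-box and Kelch adaptor genes had 4 lower (2.48%) and 20 higher (12.4%), the median log2 ratio being 0.32. The F-box genes with the root fbxo gave 10 higher and 1 lower of 29. Adaptors of this kind choose the substrates of a ligase. The SOCS-box gene asb8 was at 9.67, 45.9 and 46.4 FPKM (4.4-fold higher) and the Kelch gene klhl11 at 2.23, 12 and 9.7 FPKM, while the early zygotic gene asb11 was at 116, 14.7 and 27.7 FPKM. The F-box gene fbxo5, whose product Emi1 holds back the anaphase-promoting complex, was at 101, 34.5 and 28.4 FPKM. Among 70 deubiquitinase genes there was 1 lower (1.43%) and 10 higher (14.3%), at a median log2 ratio of 0.29. Their highest members usp33, usp45 and usp20 were at 10.2, 42.9 and 44.8 FPKM (3.93-fold higher), at 4.02, 17.3 and 16.9 FPKM and at 6.85, 25.2 and 24.7 FPKM, high in both WGA libraries. Of 168 RING, TRIM and HECT ligase genes, 6 were lower (3.57%) and 14 higher (8.33%), and the median log2 ratio was 0.25. The p53 inhibitor gene mdm4 and the signalling adaptor gene traf3 were at 8.11, 55.2 and 62.6 FPKM and at 4.48, 21.9 and 19.6 FPKM, and the RNA-binding ligase gene mex3b was at 178, 30.6 and 35.1 FPKM (5.67-fold lower). The 75 measured ubiquitin and ubiquitin-conjugating enzyme genes had 2 lower (2.67%) and 8 higher (10.7%), the median log2 ratio being 0.02. The activating enzyme gene uba1 was at 54.5, 126 and 135 FPKM. Among 55 proteasome genes there were 3 lower (5.45%) and 1 higher (1.82%), at a median log2 ratio of -0.37, whereas ribosomal protein scaling gave 0 lower and 6 higher at a median of 0.33. Of 116 cytosolic chaperone genes, 8 were lower (6.9%) and 4 higher (3.45%), and the median log2 ratio was -0.13, whereas ribosomal protein scaling gave 7 lower and 23 higher at a median of 0.57. The gene hspb1, of a small heat shock protein, stood at 714, 85.4 and 182 FPKM (8.28-fold lower), the J-domain genes dnajc5ga and dnajb1a at 9.85, 79 and 74.4 FPKM and at 3.61, 15.4 and 14.8 FPKM, and the constitutive chaperone gene hspa8 at 1601, 1163 and 1338 FPKM.

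Genes of membrane traffic had few lower members, and their higher members included single Rab effectors, sorting nexins and tethers of the endosomal route. Over all genes 8.97% were lower and 7.21% higher, and in most of these lists the share of higher members was near or below that. The 117 measured Rab GTPases and their regulators had 2 lower (1.71%) and 13 higher (11.1%), the median log2 ratio being 0.19. The gene rab20 was at 5.24, 26.6 and 20.1 FPKM and the Rab11 effector gene rab11fip4b at 4.61, 22.5 and 19.8 FPKM. Among 124 endocytosis and sorting nexin genes there were 2 lower (1.61%) and 10 higher (8.06%), at a median log2 ratio of 0.16. The retromer-linked gene snx1a was at 11.1, 52.4 and 55.2 FPKM (4.42-fold higher) and the ESCRT gene tsg101b at 5.07, 17 and 17.8 FPKM. Of 104 SNARE and tether genes, 1 was lower (0.962%) and 9 higher (8.65%), and the median log2 ratio was 0.11. The tether gene vps18 was at 5.11, 20.4 and 19.8 FPKM. All 5 were high in both WGA libraries and low in control. The 105 measured coat and Golgi genes had 0 lower and 5 higher (4.76%), the median log2 ratio being -0.01. The Golgi gene yipf1 was at 14.9, 46.8 and 53.9 FPKM. Among 51 autophagy genes there were 2 lower (3.92%) and 5 higher (9.8%), at a median log2 ratio of 0.21. Here the ubiquitin-like gene map1lc3b was at 109, 49 and 66.7 FPKM and the initiation gene ambra1b at 12.8, 34 and 31.3 FPKM. Of 63 lysosomal genes, 2 were lower (3.17%) and 3 higher (4.76%), and the median log2 ratio was -0.08, whereas scaling to a median ratio of 1 gave 2 lower and 2 higher. The cathepsin gene ctsll was at 21.9, 1.17 and 10.3 FPKM, while its abundant relative ctsla was at 935, 592 and 803 FPKM. The 68 measured endoplasmic reticulum folding genes had 1 lower (1.47%) and 3 higher (4.41%), the median log2 ratio being -0.04. The translocon gene sec61g was at 75.9, 21.8 and 25.1 FPKM, and the degradation gene herpud1 at 38.8, 116 and 115 FPKM.

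**Figure D4:**
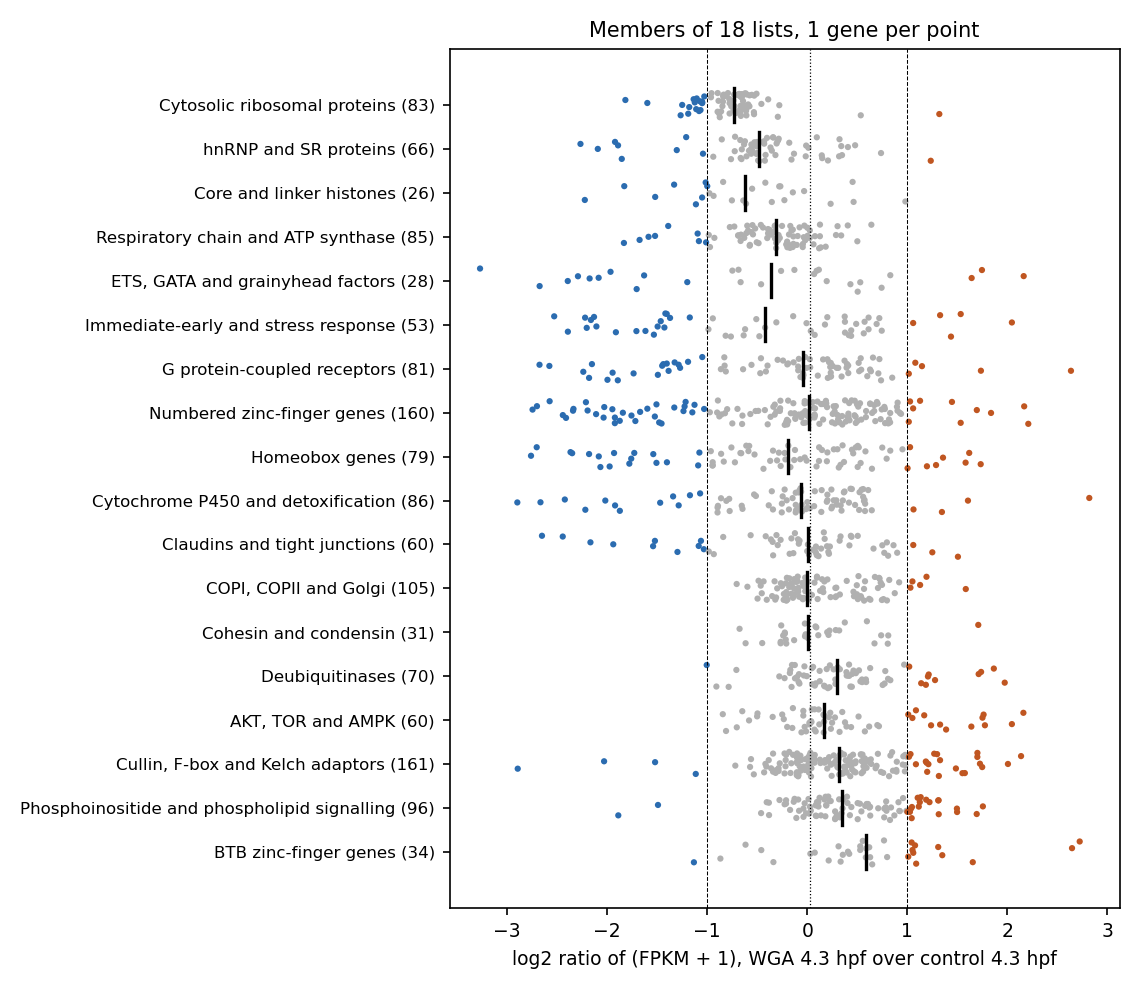
Each point is 1 measured gene of the list named at the left, with the number of genes in brackets, placed by its log2 ratio of (FPKM + 1), WGA over control at 4.3 hpf. Black bars mark list medians, the dotted line the median of all genes (0.03) and dashed lines 2-fold. Medians run from -0.73 for ribosomal proteins to 0.59 for BTB zinc-finger genes, and with ribosomal protein scaling each would lie higher.

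Histones, the bulk proteins of chromatin, were among the lower genes in the deposited values, while enzymes that modify or read them had more higher than lower members. Over all genes 8.97% were lower and 7.21% higher. The shares of higher methyltransferases and demethylases (8.99%) and remodellers (6.15%) were near the latter. Among 26 histone genes there were 8 lower (30.8%) and 0 higher, at a median log2 ratio of -0.63, whereas ribosomal protein scaling gave 2 lower and 2 higher at a median of -0.07. Among them the variant gene h3f3a was at 1153, 401 and 579 FPKM (2.87-fold lower), hist2h3c at 16.6, 2.77 and 5.06 FPKM and the linker histone gene h1f0 at 4.26, 0.48 and 0.85 FPKM. Histone genes occur in near-identical copies and most lack a poly(A) tail, so single values are uncertain in these libraries. Of 59 histone acetylation and bromodomain genes, 1 was lower (1.69%) and 9 higher (15.3%), and the median log2 ratio was 0.11. The coactivator gene crebbpa, a histone acetyltransferase, was at 8.83, 30.7 and 28.9 FPKM (3.22-fold higher) and the acetyltransferase gene kat6b at 3.62, 11.4 and 9.27 FPKM. Both were higher in both WGA libraries. The deacetylase gene hdac1 was at 371, 266 and 336 FPKM. The 89 measured histone methyltransferase and demethylase genes had 1 lower (1.12%) and 8 higher (8.99%), the median log2 ratio being 0.22. Both copies of kdm4a were higher, with kdm4aa at 3.19, 8.94 and 8.25 FPKM, and setd5 was at 5.83, 18.1 and 14.3 FPKM. Among 36 Polycomb genes there were 0 lower and 5 higher (13.9%), at a median log2 ratio of 0.29. The chromodomain gene cbx8b was at 12, 30.8 and 21.9 FPKM and suz12b, a subunit of the complex that methylates lysine 27 of histone H3, at 14.9, 33.4 and 31.4 FPKM. Of 65 chromatin remodeller genes, 1 was lower (1.54%) and 4 higher (6.15%), and the median log2 ratio was 0.14. The remodeller gene ino80 was at 3.32, 11.9 and 10.8 FPKM. The maintenance DNA methyltransferase gene dnmt1 was at 72.6, 202 and 162 FPKM (2.76-fold higher), and its partner gene uhrf1 at 216, 243 and 255 FPKM.

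Ribosomal protein genes and abundant RNA-binding proteins had medians below 0 in the deposited values. Genes of mRNA decay had higher members, and polymerases and modifying enzymes had few past 2-fold. The 83 measured cytosolic ribosomal protein genes had 17 lower (20.5%) and 1 higher (1.2%), the median log2 ratio being -0.73, whereas ribosomal protein scaling gave 2 lower and 2 higher at a median of 0.00, a scaling that sets their median ratio to 1 by construction. Among 66 hnRNP, SR and related splicing regulator genes there were 8 lower (12.1%) and 1 higher (1.52%), at a median log2 ratio of -0.48, whereas ribosomal protein scaling gave a median of 0.25. The epithelial splicing regulator gene esrp1 was at 7.88, 1.08 and 3.53 FPKM and the most abundant member, hnrnpa0l, at 2493, 1507 and 1823 FPKM. Of 54 core snRNP genes, 2 were lower (3.7%) and 0 higher, and the median log2 ratio was -0.36, whereas ribosomal protein scaling gave 0 lower and 1 higher at a median of 0.37. The Sm ring gene snrpf was at 25.9, 10.3 and 12.9 FPKM. The 78 measured mRNA decay genes had 1 lower (1.28%) and 10 higher (12.8%), the median log2 ratio being 0.09. The decapping activator gene lsm1 was at 5.7, 36 and 45.3 FPKM (5.52-fold higher), the deadenylase gene cnot7 at 2.65, 12.2 and 11.2 FPKM and the Argonaute gene ago1 at 5.68, 18.6 and 19.3 FPKM, all higher in both WGA libraries. The antiproliferative gene btg1 was at 45, 15.7 and 23.8 FPKM. Among 50 DEAD and DEAH box helicase genes there were 2 lower (4%) and 3 higher (6%), at a median log2 ratio of -0.18, whereas scaling to a median ratio of 1 gave 2 lower and 2 higher and ribosomal protein scaling gave a median of 0.55. The abundant helicase gene ddx5 was at 905, 419 and 470.03 FPKM and ddx1 at 3.7, 14 and 14.7 FPKM. Of 40 RNA polymerase I and III genes, 2 were lower (5%) and 3 higher (7.5%), and the median log2 ratio was 0.25. Both paralogs of one polymerase III subunit were lower, with polr3gla at 153, 16.4 and 42.7 FPKM (8.87-fold lower) and polr3glb at 2.26, 0.35 and 0.7 FPKM, while the gene of the polymerase I factor ubtfl was at 11.9, 45 and 49.4 FPKM. The 52 measured RNA polymerase II and general factor genes had 0 lower and 2 higher (3.85%), the median log2 ratio being -0.19, whereas ribosomal protein scaling gave a median of 0.50. One was tbpl2, a TATA-binding protein gene of the oocyte, at 4.41, 17.7 and 12.5 FPKM. Among 81 ribosome assembly genes there were 4 lower (4.94%) and 0 higher, at a median log2 ratio of -0.22, whereas ribosomal protein scaling gave 2 lower and 5 higher at a median of 0.48. The processing factor gene rrp15 was at 12.6, 3.03 and 4.39 FPKM. Of 93 tRNA and RNA modification genes, 0 were lower and 4 higher (4.3%), and the median log2 ratio was 0.17. The gene ythdf3, a reader of methylated RNA, was at 21.7, 57 and 52.2 FPKM. The 31 measured mRNA export genes had 1 lower (3.23%) and 2 higher (6.45%), the median log2 ratio being -0.26, whereas ribosomal protein scaling gave a median of 0.47. The export receptor partner gene nxt2 was at 7.2, 2.34 and 2.55 FPKM and alyref, which hands RNA to the export receptor, at 849, 631 and 759 FPKM.

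Genes of cytochrome P450 enzymes were among the lower metabolic genes, and the share of respiratory chain genes that were lower was close to that of all genes. Elsewhere in metabolism single enzymes differed while most of their pathway stayed within 2-fold. Among 33 glycolytic genes there were 3 lower (9.09%) and 5 higher (15.2%), at a median log2 ratio of 0.15. The lactate dehydrogenase gene ldha was at 4.29, 12.2 and 12 FPKM. Of 85 respiratory chain and ATP synthase genes, 8 were lower (9.41%) and 0 higher, and the median log2 ratio was -0.31, whereas ribosomal protein scaling gave 4 lower and 5 higher at a median of 0.38. The complex I genes ndufs6, ndufa5 and ndufa2 were at 6.98, 1.24 and 2.24 FPKM, at 9.1, 2.16 and 2.93 FPKM and at 6.9, 1.63 and 0.89 FPKM, low in both WGA libraries, while atp5a1 was at 264, 256 and 264 FPKM. The 99 measured mitochondrial import, carrier and dynamics genes had 2 lower (2.02%) and 7 higher (7.07%), the median log2 ratio being 0.00. The carrier gene slc25a22 was at 129, 22.7 and 18.8 FPKM (5.48-fold lower) and the fusion GTPase gene opa1 at 5.39, 25.2 and 26.4 FPKM. Among 86 cytochrome P450 and detoxification genes there were 12 lower (14%) and 4 higher (4.65%), at a median log2 ratio of -0.06, whereas ribosomal protein scaling gave 10 lower and 22 higher. Here 10 of 29 genes with the root cyp were lower and 0 higher, with cyp2aa8 at 57.8, 9.96 and 14 FPKM and cyp2aa4 at 11.1, 0.91 and 1.44 FPKM. The cyp2aa genes are near copies in a cluster, so their single values are uncertain, and pora, the reductase that supplies P450 enzymes with electrons, was at 6.76, 22.6 and 27.8 FPKM. Of 162 genes of hexosamine, O-GlcNAc, glycan and glycosaminoglycan synthesis, 12 were lower (7.41%) and 7 higher (4.32%), and the median log2 ratio was 0.19, whereas TPM scaling gave 13 lower and 15 higher and ribosomal protein scaling gave 8 lower and 64 higher. The hyaluronan synthase gene has2 was at 30.9, 4.21 and 4 FPKM (6.11-fold lower) and the chondroitin synthase gene chsy3 at 13.4, 1.82 and 2.64 FPKM, while gnpnat1, of the pathway to UDP-N-acetylglucosamine, was at 4.66, 12.2 and 16.1 FPKM. The 59 measured nucleotide genes had 4 lower (6.78%) and 5 higher (8.47%), the median log2 ratio being -0.09, whereas TPM scaling gave 6 lower and 6 higher and scaling to a median ratio of 1 gave 5 lower and 3 higher. The adenylate kinase gene ak3 was at 47.7, 4.06 and 16 FPKM, and the thymidine kinase gene tk2 at 1.36, 6.3 and 6.57 FPKM. Among 48 amino acid genes there were 2 lower (4.17%) and 4 higher (8.33%), at a median log2 ratio of -0.10, whereas ribosomal protein scaling gave a median of 0.61. The glycine cleavage gene amt was at 3.05, 15.9 and 19.2 FPKM and the arginase gene arg2 at 9.44, 2.27 and 2.72 FPKM. Of 80 redox, iron and glutathione genes, 2 were lower (2.5%) and 3 higher (3.75%), and the median log2 ratio was -0.18, whereas scaling to a median ratio of 1 gave 2 lower and 2 higher and ribosomal protein scaling gave a median of 0.47. Among them txnipa, a thioredoxin inhibitor gene, was at 15.1, 3.28 and 6.66 FPKM, and the transferrin receptor gene tfr1b at 2.28, 10.01 and 7.31 FPKM.

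Some lipid carriers of the yolk layer and some subunits of transporters were lower, and other single transporters were higher. Of all measured genes, 8.97% were lower and 7.21% higher. The shares of solute carriers and ion pumps on both sides, and of higher ion channels, were near these. The 6 measured apolipoprotein and lipid carrier genes taken by symbol pattern had 3 lower (50%) and 0 higher, the median log2 ratio being -0.98. The pattern left out the tandem copies apoa4b.2 and apoda.2, added after their values were seen, at 2.94, 0.41 and 0.67 FPKM and at 40.4, 34.2 and 30.8 FPKM, and with them 4 of 8 were lower at a median of -0.86. The summed FPKM of the first 6 was 511, 115 and 193, of which apoeb alone made up 457, 56 and 133 FPKM. The sum thus mostly follows this 1 gene and does not describe the class. The microsomal transfer gene mttp, listed as mtp, was at 3.16, 0.09 and 1.87 FPKM. These genes are active in the yolk syncytial layer, and its regulators hnf4a and gata6 were at 15.2, 0.76 and 4.38 FPKM and at 20.1, 1.19 and 8.23 FPKM. The part of that layer's cell number in the result was not tested. Among 84 fatty acid and lipid genes there were 3 lower (3.57%) and 9 higher (10.7%), at a median log2 ratio of 0.14. The phosphatidate phosphatase gene lpin2, listed as lipin2, was at 3.77, 19.9 and 15.4 FPKM and the monoglyceride lipase gene mgll at 7.37, 1.2 and 2.84 FPKM. Of 28 cholesterol genes, 0 were lower and 2 higher (7.14%), and the median log2 ratio was 0.03. The early pathway enzyme gene hmgcs1 was at 42.7, 98.4 and 106 FPKM. The 142 measured solute carrier genes had 9 lower (6.34%) and 11 higher (7.75%), the median log2 ratio being 0.06, whereas scaling to a median ratio of 1 gave 9 lower and 8 higher. Both chains of an amino acid exchanger were lower, since slc3a2b, which encodes the heavy chain that partners slc7a8a, was at 19, 2.49 and 10.7 FPKM. The lactate carrier gene slc16a1a was at 0.9, 5.36 and 5.43 FPKM, and the abundant slc16a3 at 320.1, 341 and 321 FPKM. Among 28 ion pump genes there were 2 lower (7.14%) and 2 higher (7.14%), at a median log2 ratio of 0.25, whereas TPM scaling gave 2 lower and 3 higher and scaling to a median ratio of 1 gave 2 lower and 1 higher and ribosomal protein scaling gave 2 lower and 10 higher. The beta subunit genes atp1b1a and atp1b3a of the sodium pump were at 24.3, 2.75 and 5.07 FPKM and at 4.53, 0.22 and 0.36 FPKM, the alpha subunit gene atp1a1a.1 was at 209.6, 169.9 and 149 FPKM, and the calcium pump gene atp2a2a at 20.5, 78.7 and 74 FPKM. These beta genes were thus low in both WGA libraries, while the alpha gene was within 2-fold of control. A more abundant beta subunit gene, atp1b3b, named after its values were seen, was also within 2-fold, at 150.1, 146.5 and 159 FPKM. Of 30 ABC transporter genes, 0 were lower and 3 higher (10%), and the median log2 ratio was 0.18. The highest ratio was that of the peroxisomal gene abcd3a, at 5.82, 32 and 32.6 FPKM. The 117 measured ion channel genes had 3 lower (2.56%) and 9 higher (7.69%), the median log2 ratio being 0.20. The highest ratio was that of ano5b, at 6.53, 25.3 and 24.8 FPKM.

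Claudins, some actin-binding proteins and some guidance genes were among the lower genes. The lists of microtubules and of centrosomes and cilia had more higher than lower members. Set beside these are the shares of all genes, 8.97% lower and 7.21% higher. The shares of lower actin regulators (6.62%) and lower guidance genes (6.38%) were below the former, so those named are single members. Among 60 tight junction and polarity genes there were 10 lower (16.7%) and 3 higher (5%), at a median log2 ratio of 0.01, whereas ribosomal protein scaling gave 7 lower and 15 higher. The claudin genes cldne and cldnb were at 69.8, 10.3 and 23.5 FPKM (6.29-fold lower) and at 17.1, 3.04 and 4.97 FPKM, and the polarity gene pard6b at 2.8, 9.79 and 8.82 FPKM. Claudins of this kind seal epithelia such as the enveloping layer, whose keratin gene krt4 was at 113, 13.1 and 43.6 FPKM, and the part of that layer's cell number in the result was not tested. Of 28 cadherin and catenin genes, 2 were lower (7.14%) and 0 higher, and the median log2 ratio was -0.01, whereas TPM scaling gave 2 lower and 3 higher and ribosomal protein scaling gave 2 lower and 6 higher. The protocadherin gene pcdh1b was at 44.4, 8.94 and 10.2 FPKM. The 47 measured ephrin, semaphorin, plexin and netrin genes had 3 lower (6.38%) and 1 higher (2.13%), the median log2 ratio being 0.20, whereas TPM scaling gave 3 lower and 5 higher and ribosomal protein scaling gave 3 lower and 13 higher. The adhesion gene flrt3 was at 12.1, 1.53 and 2.97 FPKM. The guanine nucleotide exchange factor gene net1 was at 45.9, 8.3 and 8.81 FPKM (5.04-fold lower), and the GTPase-activating gene arhgap1 at 8.86, 42.4 and 48.5 FPKM. Among 136 actin regulator genes there were 9 lower (6.62%) and 8 higher (5.88%), at a median log2 ratio of -0.04, whereas ribosomal protein scaling gave 7 lower and 29 higher. The thymosin gene tmsb1 and the actin-binding genes tagln2 and lcp1 were at 4, 0.1 and 3.34 FPKM, at 9.17, 0.82 and 3.21 FPKM and at 5.63, 0.61 and 4.87 FPKM, low in WGA embryos at 4.3 hpf and nearer control at 5 hpf. Of 75 tubulin and microtubule genes, 3 were lower (4%) and 10 higher (13.3%), and the median log2 ratio was 0.21. The tubulin gene tubb2b was at 201, 69.9 and 75.2 FPKM, and the microtubule-binding genes map1sa and camsap1b at 4.82, 26.7 and 24.7 FPKM and at 1.84, 8.64 and 6.49 FPKM. The 73 measured kinesin and dynein genes had 5 lower (6.85%) and 11 higher (15.1%), the median log2 ratio being 0.09, where dynll1 was the most abundant member in control and kif14 was at 8.45, 25.5 and 21.4 FPKM. Among 120 centrosome and cilium genes there were 2 lower (1.67%) and 11 higher (9.17%), at a median log2 ratio of 0.21. The highest ratio was that of the pericentriolar gene pcnt, at 4.73, 16.1 and 13.2 FPKM. Of 21 annexin, S100 and galectin genes, 3 were lower (14.3%) and 0 higher, and the median log2 ratio was -0.11, whereas ribosomal protein scaling gave a median of 0.37. The annexin gene anxa1a was at 34.7, 5.18 and 21.2 FPKM.

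The helicase genes mcm6 and mcm3 and the G1 cyclin gene ccnd1 were lower, while genes of repair and checkpoint signalling had members on both sides. For comparison, all genes had 8.97% lower and 7.21% higher. The lower shares of the replication, repair and kinetochore lists were below the former. Their higher shares were 9.46%, 9.92% and 5.06%, the first 2 not far above the latter. The 57 measured cyclin, CDK and CDK inhibitor genes had 8 lower (14%) and 4 higher (7.02%), the median log2 ratio being 0.01, whereas ribosomal protein scaling gave 6 lower and 21 higher. The CDK5 activator gene cdk5r1a was at 24.8, 3.19 and 4.69 FPKM, cyclin D1 (ccnd1) at 147, 24.8 and 28.8 FPKM (5.73-fold lower), cyclin J (ccnj) at 3.38, 20.8 and 20.1 FPKM and cyclin A2 (ccna2), the most abundant, at 994, 826 and 955 FPKM. Among 74 DNA replication genes there were 4 lower (5.41%) and 7 higher (9.46%), at a median log2 ratio of -0.03, whereas scaling to a median ratio of 1 gave 4 lower and 3 higher. The replicative helicase genes mcm6 and mcm3 were at 9.49, 1.33 and 1.93 FPKM (4.5-fold lower) and at 27.4, 5.44 and 8.6 FPKM, and the clamp loader gene rfc1 at 9.54, 44.9 and 45.2 FPKM (4.35-fold higher). Of 12 genes with the root mcm, 2 were lower and 1 higher, and the other 9 lay within 2-fold. Of 121 DNA repair and damage response genes, 9 were lower (7.44%) and 12 higher (9.92%), and the median log2 ratio was 0.14. The mismatch repair gene pms2 was at 3.8, 14.6 and 8.04 FPKM and the checkpoint kinase gene atr at 2.55, 8.92 and 8.31 FPKM. The 79 measured kinetochore, spindle and anaphase-promoting complex genes had 4 lower (5.06%) and 4 higher (5.06%), the median log2 ratio being -0.03, whereas TPM scaling gave 5 lower and 6 higher and ribosomal protein scaling gave 1 lower and 22 higher. The checkpoint gene bub3 was at 13.5, 4.63 and 3.99 FPKM and zw10 at 17.4, 43.3 and 42.2 FPKM. Among 21 E2F, MYB and pocket protein genes there were 2 lower (9.52%) and 0 higher, at a median log2 ratio of -0.03, whereas ribosomal protein scaling gave 1 lower and 4 higher. The repressor gene e2f7 was at 12.4, 2.82 and 4.64 FPKM. Of 51 cell death genes, 1 was lower (1.96%) and 3 higher (5.88%), and the median log2 ratio was 0.16, whereas TPM scaling gave 6 lower and 5 higher. The pro-apoptotic gene bmf1 was at 5.93, 19.5 and 17.7 FPKM. The 75 measured egg coat, oocyte and cortical granule genes had 0 lower and 9 higher (12%), the median log2 ratio being 0.11. Its 3 highest members were the germ plasm genes tdrd6 and buc and the translation regulator gene cpeb1b, the last at 12.1, 65.9 and 71.8 FPKM. Of 14 genes with the root zp, which encode egg coat proteins, 0 were lower and 0 higher. Their median log2 ratio was -0.18, whereas ribosomal protein scaling gave a median of 0.55.

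Some families had few members past 2-fold in the deposited values, and more with ribosomal protein scaling. None of 13 connexin and aquaporin genes passed 2-fold, whereas TPM scaling gave 2 lower and 0 higher, a median ratio of 1 gave 1 lower and 0 higher and ribosomal protein scaling gave 0 lower and 2 higher. The maternal connexin gene gjc4b, listed as cx43.4, was at 468, 245 and 267 FPKM (1.91-fold lower), and the summed FPKM of the list was 520.03, 301 and 317. Of 35 aminoacyl-tRNA synthetase genes 1 passed 2-fold, cars2 at 3.33, 8.93 and 9.75 FPKM, whereas ribosomal protein scaling gave 0 lower and 8 higher. Of 31 cohesin and condensin genes 1 did, stag2a at 6.16, 22.4 and 16.6 FPKM, whereas that scaling gave 0 lower and 9 higher. Of 21 vacuolar ATPase genes 1 did, atp6v0a1a at 6.7, 14.8 and 10.3 FPKM, whereas that scaling gave 0 lower and 5 higher and a median ratio of 1 gave 0 lower and 0 higher. Of 66 translation initiation factor genes 2 did, eif3k at 12.1, 4.19 and 5.95 FPKM and eif4ebp2 at 52.5, 125 and 144 FPKM, whereas ribosomal protein scaling gave 0 lower and 8 higher and TPM scaling 1 lower and 2 higher. Of 24 septin, lamin and other filament genes 1 did, the cornified envelope gene evpla at 1.54, 0.09 and 0.99 FPKM, whereas ribosomal protein scaling gave 1 lower and 2 higher and TPM scaling 1 lower and 1 higher. Mediator had 3 of 31 past 2-fold, whereas ribosomal protein scaling gave 0 lower and 6 higher. Of the 3 in the deposited values, med13b and med13a, the paired kinase-module genes, were at 12.9, 33.4 and 25.5 FPKM and at 21.5, 49.6 and 44.2 FPKM, and med9, listed by a clone name, was lower.

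Families were also taken without any list, as all named genes that share the letters before the first digit of their symbol, in groups of 10 or more measured genes. There were 144 such groups, and 27 of them had no gene past 2-fold. The groups with the highest share lower were ftr (5 of 12), rgs, cyp, sox, ndufa (4 of 13) and h (3 of 13, histones). The ftr genes encode finTRIM proteins, a large family of fish ubiquitin ligases with many near copies, and ndufa genes encode accessory subunits of respiratory complex I. Those with the highest share higher were mtmr (6 of 12), fbxo, pik (5 of 15), zbtb, cbx (3 of 11) and, with equal shares, kif (7 of 28) and traf (3 of 12). The mtmr genes encode myotubularins, phosphatases of 3-phosphoinositides. The pik genes include those of kinases that make these lipids and of regulatory subunits such as pik3r3b. The median log2 ratio was 1.00 in mtmr, 0.83 in pik and 0.61 in fbxo, against -0.72 in ftr and -0.65 in cyp. With ribosomal protein scaling the medians of ftr and cyp were -0.45 and -0.24, those of rgs and sox became positive (0.22 and 0.56), and the h group had 1 gene lower and 1 higher.

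Genes whose symbols differ only in a last letter a or b were compared as pairs. In zebrafish many such pairs come from a genome duplication, but the letters also tell apart separate genes, such as the polymerase I subunit genes polr1a and polr1b, so the counts are of pairs by symbol. Of 1005 pairs measured, 743 had both members within 2-fold. In 157 pairs 1 member was higher and the other within 2-fold, and in 57 pairs 1 member was lower and the other within 2-fold. A member within 2-fold need not be level, since some lay just under the threshold. In 21 pairs both were lower and in 18 both were higher. In 9 pairs the members lay past 2-fold on opposite sides. Over all measured genes 8.97% were lower and 7.21% higher, and the pair counts that these shares alone would give were not computed. The widest difference was between sox19a and sox19b, which encode SoxB1 factors with nearly the same DNA-binding domain, the second known as a maternal RNA in zebrafish. The first was at 63.2, 10.7 and 15.4 FPKM (5.48-fold lower) and the second at 56.6, 293 and 292 FPKM (5.1-fold higher). The small GTPase genes arl4aa and arl4ab were at 12.8, 39.3 and 31.8 FPKM and at 12, 2.29 and 3.69 FPKM. The tetraspanin genes cd82a and cd82b were at 9.03, 1.68 and 1.86 FPKM and at 33.1, 83.3 and 81.3 FPKM, and the homeobox genes otx2a and otx1, listed as otx1a and otx1b and so not copies of 1 gene by their current names, at 10.4, 2.45 and 2.54 FPKM and at 55.5, 144 and 131 FPKM. In control sox19a and sox19b were at similar levels, as were arl4aa and arl4ab, and in both WGA libraries 1 of each pair was far above the other. In the cd82 pair and the pair of homeobox genes the one listed with b was the more abundant in every library.

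The other opposite pairs belong to metabolism, chromatin and the cytoskeleton. The genes pfkfb4a and pfkfb4b, which encode the enzyme that sets the level of a glycolysis activator, were at 5.56, 21.1 and 21.6 FPKM and at 19, 7.68 and 9.56 FPKM. The mitotic kinesin genes kif20ba and kif20bb were at 15.7, 44.6 and 41.8 FPKM and at 7.13, 2.66 and 2.98 FPKM. The bromodomain genes brd2a and brd2b, readers of acetylated histones, were at 198, 76.4 and 57.1 FPKM and at 13.7, 29.8 and 29.2 FPKM. In each of these 3 pairs the WGA libraries lay on the same side of control, and brd2a stayed the more abundant bromodomain gene throughout. The Golgi genes golim4a and golim4b were at 10.3, 26.7 and 22.4 FPKM and at 2.74, 0.72 and 0.87 FPKM, and zbtb8a and zbtb8b at 8.56, 19.2 and 16.7 FPKM and at 5.91, 2.15 and 3.03 FPKM. Counting pairs whose ratios differed by 4-fold or more whatever their calls gave 50.

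**Figure D5:**
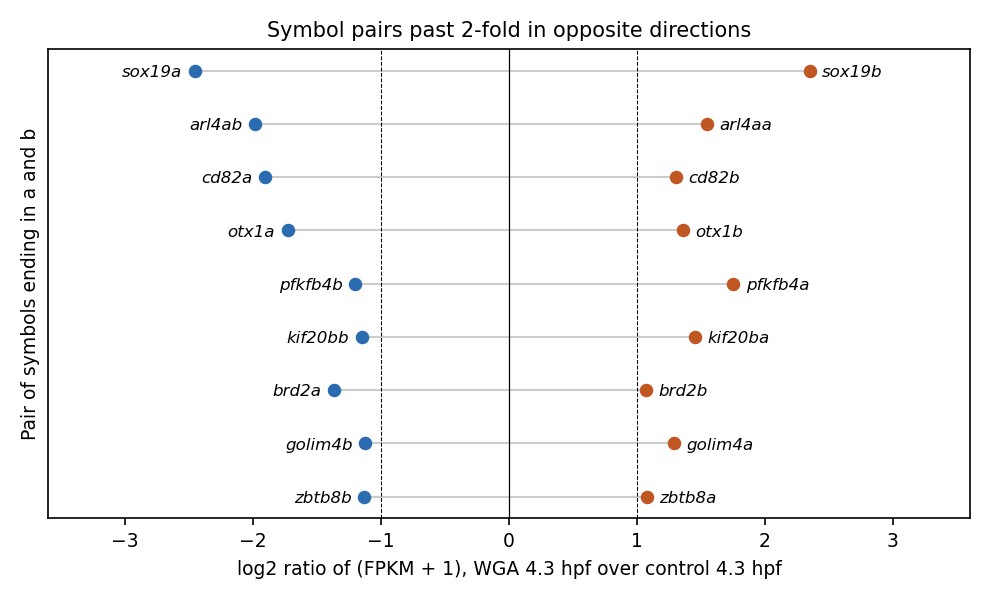
Each row is 1 pair of symbols that differ in a last letter a or b, and each point a gene placed by its log2 ratio of (FPKM + 1), WGA over control at 4.3 hpf, with dashed lines at 2-fold. The 9 pairs are ordered by the gap between their members, from sox19a and sox19b at -2.45 and 2.35 to zbtb8b and zbtb8a at -1.13 and 1.08.

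Genes that lie side by side were compared through the gene order of the NCBI table, whose assembly GRCz12tu differs from the build of the files and was used for order alone. It placed 13580 measured genes and gave 7968 pairs of direct neighbours. Neighbours of lower genes were themselves lower in 19.97% of 1182 cases, against 8.97% of all measured genes. Neighbours of higher genes were higher in 10.1% of 1126, which is nearer to the 7.21% of all measured genes. There were 14 runs of 3 or more adjacent lower genes and 2 of higher genes. The runs were found by this search and their members were chosen after the values were seen. A run of 4 held the claudin genes cldnj, cldne, cldnf and cldna, 2.87-fold, 6.29-fold, 3.84-fold and 2.05-fold lower. Another of 4 held the zinc-finger gene drl, at 45.3, 9 and 9.13 FPKM, with its tandem relatives drll.1, drll.2 and drll.3, listed by clone names and 5.85-fold, 5.91-fold and 5.18-fold lower. The longest, with 5 genes, held znf995 at 169, 30.9 and 16.5 FPKM and 4 unnamed neighbours. Further runs held apolipoprotein genes (apoa4b.2, apoeb and apoc1), keratin genes (krt5, krt8 and krt18, then krt92, cyt1l and cyt1) and deoxyribonuclease genes (dnase1l4.1 and dnase1l4.2 with an unnamed neighbour). Most of these are tandem copies, among which reads can be shared. On the higher side the runs held sdccag8, akt3a and zbtb18, and fam210ab, ldlrad4b and ptk2ab, which are not tandem copies of each other, and lay 2.01-fold (fam210ab) to 3.15-fold (zbtb18) higher.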

How the data were processed

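Poly(A) RNA of whole zebrafish embryos was sequenced in 3 libraries, 1 per group. The submitters' processing notes list Trimmomatic 0.36, Bowtie2 2.2.5, RSEM 1.2.8 and the build GRCz11. The authors deposited FPKM per gene, which RSEM estimates by sharing reads among near copies, so single values in such families are uncertain. FPKM is relative to each library and keeps no depth, so depth is unknown and no interval is given. Log2 ratios of (FPKM + 1) were computed here for genes at FPKM of 1 or more in either library of the pair. Symbols that a spreadsheet had turned into dates, and current symbols, were restored through the NCBI gene table (assembly GRCz12tu), which matched 13611 of 14263 measured genes.

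Members, lists, tests and alternatives were chosen with earlier results of these data known. The 99 lists came from symbol patterns, from which 245 entries were removed by identity after values were seen. Named genes are the 20 highest and 20 lowest named genes at FPKM of 10 or more, the 3 lowest and 3 highest members past 2-fold and the most abundant member of each list, opposite pairs of symbols ending in a and b, fixed markers and reference genes. Others are said to have been chosen after their values were seen. Some of the genes so chosen are not reported here. A planned search for promoter motifs was not run, as no promoter sequences were used here. Alternatives were other pseudocounts, scalings and filters, a 4-fold threshold and, added after seeing the data, the lists without removal and with dotted symbols added. The scripts, in Python 3.11.15 with numpy 2.4.6, pandas 2.3.3 and matplotlib 3.10.9, were tested on simulated data.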

Additional observations from a re-analysis of the deposited data

How the results depend on the processing

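With a pseudocount of 5 in place of 1, 532 genes were lower and 475 higher, and 4 symbol pairs had members on opposite sides. TPM scaling gave 1544 lower and 1589 higher genes. Ribosomal protein scaling gave 814 lower and 4209 higher, and left 4 lists with more members lower than higher, against 37 in the deposited values. With genes at FPKM of 5 or more, 783 were lower. At 4-fold the counts were 336 lower, 91 higher and 1 opposite pair. The other alternatives kept the counts of genes, leading lists and opposite pairs within 1.5 times. Of 537 genes open to naming, 451 were past 2-fold, and none of these changed direction under any pseudocount or scaling tried. With a pseudocount of 5, 163 of them no longer reached 2-fold, and with ribosomal protein scaling 55. The side holding more members switched in 6 lists with TPM, 3 with a median ratio of 1 and 29 with ribosomal protein scaling. Under that scaling all 99 list medians moved by 0.25 or more, by its construction. The cause of the other shifts was not tested. No paired analysis was possible because each group has 1 library, and for the same reason no library could be left out. The planned promoter motif search was not run. Low genes limit the comparison, since at FPKM near 1 a few reads can make a 2-fold ratio and read numbers are not known.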
